A study of Mus musculus with 9 samples.

Results

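Presynaptic vesicle and active zone genes encode the proteins with which an axon terminal stores and releases its transmitter. The 37 genes described here were listed by name as the release machinery of olfactory axon terminals, by a rule that uses no expression value, and the list was drawn up with earlier results of these data known. They comprise 7 synaptotagmin and Doc2 genes, 6 SNARE and complexin genes, 2 vesicular glutamate transporters, 8 genes of the vesicle membrane including the synapsins, 7 active zone genes, 2 Rab genes, 3 calcium channel subunits and 2 neurexins. All 37 were found among the 55291 genes of the deposited tables. Of these, 34 were among the 16399 genes that passed edgeR's filter on low counts and were tested, and Doc2b, Cplx1 and Slc17a7 did not pass it.

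The measurements are RNA-seq values of 9 libraries of polyadenylated RNA from mature olfactory sensory neurons of mice, 3 libraries in each of 3 groups, although the design text of the series speaks of duplicates. Neurons of the Olfr1507 group came from Olfr1507-IRES-GFP mice, those of the Olfr73 group from Olfr73-IRES-GFP mice and those of the Olfr160 group from Olfr160-IRES-mCherry mice. An IRES is an internal ribosome entry site, so that a neuron that transcribes the tagged odorant receptor allele also makes the fluorescent protein. In all 3 groups the main olfactory epithelium was dissociated with papain and sorted by flow cytometry for strong reporter fluorescence and weak DAPI staining. The labels used here give no age, sex or strain background, and the reporter of the Olfr160 group differs from that of the other groups, so receptor and reporter cannot be told apart there. Whether each library came from its own animals is not stated either, and the p-values therefore reflect the scatter among these libraries alone, which may be technical in origin.

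Olfactory sensory neurons detect odorants in the nose and send their axons to glomeruli of the olfactory bulb, where they release glutamate onto mitral, tufted and juxtaglomerular cells. A synaptic vesicle is filled by a vesicular transporter, docked and primed by active zone proteins such as RIM and Munc13, and fused with the membrane by SNARE proteins when calcium enters through voltage-gated channels and binds a synaptotagmin. Olfactory axon terminals are known in rodents for a high probability of release. The sorted cell bodies carry the transcripts of this machinery, not the terminals.

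Libraries held between 17212807 and 36230606 expected counts. The tagged receptor took 85.1% to 94.7% of all counts on odorant receptor (Olfr) genes in the Olfr1507 libraries, 22.8% to 32.8% in the Olfr73 libraries and 2.08% to 10.1% in the Olfr160 libraries, and each was highest in the group named after it. Other receptors thus held 5.32% to 14.9% of the receptor counts in Olfr1507 libraries, 67.2% to 77.2% in Olfr73 libraries and 89.9% to 97.9% in Olfr160 libraries, and the group names below stand for the labels of the sorts. The 7 markers of mature olfactory neurons (Omp, Adcy3, Cnga2, Gnal, Stoml3, Ano2 and Rtp1) were all detected in every group. Together they made up 7.65% to 7.92% of the counts in Olfr1507 libraries, 4.96% to 5.12% in Olfr73 libraries, and 2.82%, 3.44% and 4.40% in Olfr160 libraries 1, 2 and 3. The 10 sustentacular and gland markers (Cyp2g1 and others) moved the other way, with 0.0207% to 0.0549% of the counts in Olfr1507, 0.275% to 0.504% in Olfr73 and 1.85% to 4.34% in Olfr160 libraries. The 6 respiratory epithelium markers together made up 0.00601% to 0.0166% of counts in Olfr1507 libraries, 0.108% to 0.243% in Olfr73 libraries and 0.506% to 1.42% in Olfr160 libraries. Of these 6, Krt19, Tff2, Reg3g and Bpifa1 were called lower in Olfr1507 than in either other group, while Foxj1 and Dynlrb2 were called higher in both comparisons after TMM scaling and not relative to transduction genes. The 10 immature neuron markers (Gap43 and others) made up 0.0866% to 0.089% of counts in Olfr1507, 0.129% to 0.159% in Olfr73 and 0.214% to 0.230% in Olfr160 libraries. In Olfr1507 over Olfr160 after TMM scaling, 5 of them were called lower and 2 (Dcx and Crmp1) higher. The 8 progenitor and basal cell markers made up 0.000264% to 0.000505%, 0.0041% to 0.0089% and 0.026% to 0.051% in the same order of groups. The part of these other cells in the differences described below was not tested, and in bulk RNA fewer cells of a type and less RNA per cell cannot be told apart.

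Levels of the 37 genes spanned more than 4 orders of magnitude. On the TPM scale, which allows for transcript length, the means over all 9 libraries placed 6 genes above 100 TPM, 14 between 10 and 100, 10 between 1 and 10, and 7 below 1. The highest was Snap25, a SNARE protein of the plasma membrane, at 1095 TPM (541 to 1503 over the 9 libraries). Next came Syt11, a synaptotagmin that does not bind calcium, at 881 TPM, and Syt1, the calcium sensor of fast release in many central synapses, at 382 TPM. Slc17a6 (VGLUT2), which loads vesicles with glutamate, stood at 341 TPM, Stx1a, the other SNARE of the plasma membrane, at 177 TPM, and Syt4 at 157 TPM. At the low end were Erc2 at 0.464, Nrxn3 at 0.481 and Syn1 at 0.742 TPM, and Cplx1, Slc17a7, Syt2 and Doc2b were at or below 0.12 TPM.

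Among the listed members of most small families, 1 gene carried most of the transcripts. Paralogues outside the 37 genes were left out of the shares below. Normalised CPM, defined below, makes no allowance for transcript length. On that scale Unc13c averaged 62.1, 82.1 and 36.7 in Olfr1507, Olfr73 and Olfr160, against 18.4, 41.4 and 38.9 for Unc13b. Rims3 averaged 416, 21.4 and 46.2, against 37.9, 25.5 and 15.9 for Rims2. Slc17a6 made up 99.98% of the summed TPM of the vesicular glutamate transporters Slc17a6 and Slc17a7 (mean of 9 libraries). Cplx2 made up 99.86% of that of the complexins Cplx1 and Cplx2, which clamp and promote fusion. Unc13b (Munc13-2) held 79.7% of the TPM of Unc13a and Unc13b, Rims2 69.8% of that of Rims1 and Rims2, Sv2b 74.7% of that of Sv2a and Sv2b, and Vamp1 75.2% of that of the vesicular SNAREs Vamp1 and Vamp2. Synapsins were divided between Syn2 with 52.1%, Syn3 with 43.7% and Syn1 with 4.15%. Genes of inhibitory terminals (Slc32a1, Gad1 and Gad2) together made up at most 0.000703% of the counts of any library.

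**Figure D1:**
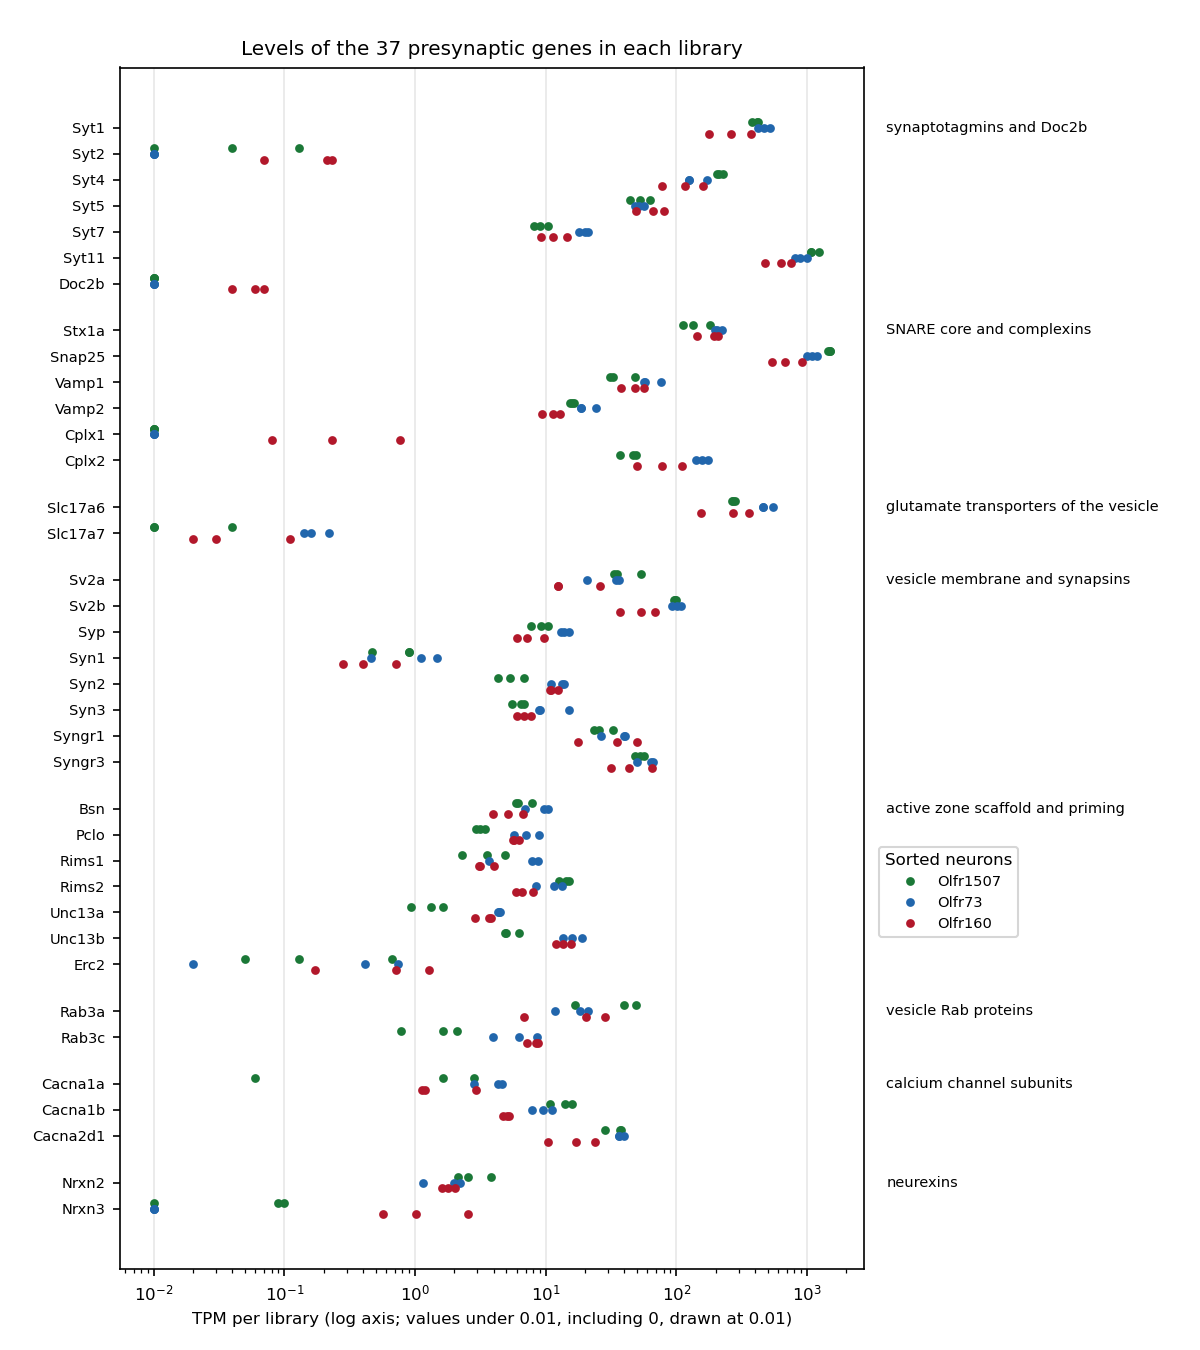
TPM of each of the 37 genes in each of the 9 libraries, 1 point per library, on a log axis, with genes arranged by role and points coloured by group (Olfr1507, Olfr73, Olfr160). Snap25, Syt11 and Syt1 lead at means of 1095, 881 and 382 TPM, and Doc2b, Syt2, Slc17a7 and Cplx1 lie at or below 0.12 TPM.

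RefSeq promoter sequences (build GRCm38.p6) were at hand for 26 of the 37 genes, as windows of 300 bases from 250 before to 50 after the annotated start. The GC box GGGCGG, searched on both strands, was in 23 of the 26 genes (88.5%), against 38.2% of 27025 genes searched in the same way. A TATAAA box was in 1 (Sv2b, 3.85%) against 15.7%. The letters TTCAGCACC, the left part of the RE1 element that the neuronal repressor REST binds, were in 2, Syn1 and Unc13a (7.69%), against 0.433% of all genes. The cyclic AMP response element TGACGTCA was in Syn1 (3.85%) against 2.03%, and the Olf/Ebf core motif was in 0 of 26 against 1.06%. The first 3 of these motifs were picked after the sequences had been seen, no test was made, and a match of letters shows no binding. The 250 bases before the start are printed for Cacna1b and Unc13b, which differed in opposite directions between Olfr1507 and both other groups after TMM scaling, and for Syn1, a synapsin gene near the lower end of the levels. Capitals mark GGGCGG or its reverse complement CCGCCC in Cacna1b (chr2:24763153-24763402, minus strand, 3 matches) and Unc13b (chr4:43058703-43058952, plus strand, 4 matches), and TTCAGCACC followed by TGACGTCA in Syn1 (chrX:20920919-20921168, minus strand).
Cacna1b: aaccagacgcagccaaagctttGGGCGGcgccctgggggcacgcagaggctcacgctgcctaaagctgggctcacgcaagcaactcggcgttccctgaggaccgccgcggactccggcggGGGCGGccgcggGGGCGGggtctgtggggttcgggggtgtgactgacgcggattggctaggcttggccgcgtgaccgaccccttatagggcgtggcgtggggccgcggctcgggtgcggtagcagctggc
Unc13b: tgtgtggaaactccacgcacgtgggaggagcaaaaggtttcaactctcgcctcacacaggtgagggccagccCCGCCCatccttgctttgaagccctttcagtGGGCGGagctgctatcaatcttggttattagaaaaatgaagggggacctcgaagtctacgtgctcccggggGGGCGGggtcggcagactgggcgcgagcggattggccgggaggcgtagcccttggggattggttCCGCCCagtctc
Syn1: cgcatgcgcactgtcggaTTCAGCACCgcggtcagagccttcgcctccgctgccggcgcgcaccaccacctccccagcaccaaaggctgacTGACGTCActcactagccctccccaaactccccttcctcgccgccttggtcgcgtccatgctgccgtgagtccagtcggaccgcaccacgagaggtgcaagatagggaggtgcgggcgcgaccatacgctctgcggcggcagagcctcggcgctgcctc

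Group differences are given on the scale of normalised CPM, in which counts are divided by the effective library size after TMM scaling. A gene is called when its adjusted p in edgeR's quasi-likelihood test over all 16399 genes is under 0.05. The choice of scaling bears on direction. As an alternative, libraries were scaled to equal summed counts of 15 olfactory transduction genes (Omp, Adcy3, Cnga2 and others). The median over all 16399 genes then moved to -1.72 on the log2 scale in Olfr1507 over Olfr160 (TMM scaling -0.14). It moved to -1.03 in Olfr1507 over Olfr73 (TMM scaling -0.15) and to -0.71 in Olfr73 over Olfr160 (TMM scaling -0.012). Values relative to transduction genes are therefore given beside the results that turn while called under either scaling. Only the sum of the 15 genes is level on that scale. In Olfr1507 over Olfr160, 2 of the 15 were called higher and 4 lower on it. These numbers were 5 and 6 in Olfr1507 over Olfr73, and 1 and 3 in Olfr73 over Olfr160.

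Among the synaptotagmins, Syt1, Syt4 and Syt11 were higher in Olfr1507 than in Olfr160 neurons after TMM scaling, and all 3 turned to lower when libraries were scaled to transduction genes (log2 fold changes of -0.68, -0.41 and -0.47). Syt1 stood at 1212, 1269 and 1144 normalised CPM in Olfr1507 libraries, 1225, 1369 and 1136 in Olfr73 libraries and 453, 678 and 952 in Olfr160 libraries. Every Olfr160 library lay below all others, and Olfr1507 and Olfr73 overlapped. Its log2 fold change was 0.80 (SE 0.23, adjusted p = 0.0169) for Olfr1507 over Olfr160 and 0.84 (SE 0.23, adjusted p = 0.0341) for Olfr73 over Olfr160. Of the 9 fits that each left out 1 library, the first call was lost in 2, without Olfr1507 library 2 or Olfr160 library 2 (highest adjusted p 0.0523), and the second in 7, all but those without Olfr160 library 1 or 3 (highest adjusted p 0.114).

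Syt11, which in mice is known for roles in membrane traffic and not as a calcium sensor of fusion, had 2145, 2538 and 2225 normalised CPM in Olfr1507 libraries, 1455, 1879 and 1689 in Olfr73 libraries and 853, 1158 and 1322 in Olfr160 libraries, with no overlap between any groups. It rose by a log2 fold change of 1.05 (SE 0.17, adjusted p = 0.00119) in Olfr1507 over Olfr160 and by 0.59 (SE 0.17, adjusted p = 0.0434) in Olfr73 over Olfr160, the second call being lost in 7 of the 9 fits without 1 library (all but those without Olfr73 library 1 or Olfr160 library 3) and turning to -0.052 relative to transduction genes. Between Olfr1507 and Olfr73 its log2 fold change of 0.46 did not pass (SE 0.17, adjusted p = 0.0647), and relative to transduction genes it was called lower at -0.42. In the same comparison it was called higher with DESeq2 (adjusted p = 0.0214), without the low-count filter (0.0421) and with the 6 libraries compared (0.0162), but not with RLE factors. Syt4, which has been tied to dense core vesicles, reached 544, 502 and 526 normalised CPM in Olfr1507, against 265, 372 and 275 in Olfr73 and 166, 247 and 334 in Olfr160. All Olfr1507 libraries exceeded all others (log2 fold change 1.07 over Olfr160, SE 0.23, adjusted p = 0.0049, and 0.79 over Olfr73, SE 0.23, adjusted p = 0.0278). The call over Olfr73 was lost without any 1 of the Olfr1507 libraries or without Olfr73 library 1 or 3 (highest adjusted p 0.0824) and turned to -0.0895 relative to transduction genes. A share of 14.5% of the exon bases of Syt4 also lie in exons of the opposite-strand gene Gm26658, whose reads cannot be told apart here.

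Syt7, a slow and high-affinity calcium sensor linked to facilitation and asynchronous release, was set apart in Olfr73 neurons after TMM scaling. It measured 39.0, 44.6 and 36.2 normalised CPM in Olfr1507, 67.5, 81.0 and 79.0 in Olfr73 and 42.8, 35.7 and 54.7 in Olfr160, so that every Olfr73 library exceeded all others. The log2 fold change was -0.92 (SE 0.17, adjusted p = 0.00336) for Olfr1507 over Olfr73, kept in all 9 fits without 1 library, and 0.77 (SE 0.17, adjusted p = 0.0156) for Olfr73 over Olfr160, lost without Olfr160 library 1 or 2 (highest adjusted p 0.0608). Relative to transduction genes Syt7 gave 0.10 in Olfr73 over Olfr160 and was not called (adjusted p = 0.701). Olfr1507 over Olfr73 stayed called at -1.80 on that scale. Syt5, a close relative of Syt1, averaged 44.7 ± 5.76, 34 ± 4.51 and 41.3 ± 7.16 normalised CPM in Olfr1507, Olfr73 and Olfr160 (SD, n = 3 each), and no comparison passed (adjusted p = 0.0995 to 0.607). Scaled to transduction genes Syt5 turned and was called lower in Olfr1507 over Olfr160 (-1.42) and over Olfr73 (-0.49). Syt2, the fast sensor of many hindbrain synapses, had at most 19 counts in any library, and Doc2b had 0 counts in the 6 GFP libraries and 3, 4 and 2 counts in Olfr160 libraries.

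After TMM scaling the plasma membrane SNARE Snap25 (chr2:136713453-136782428) was graded across the groups, while its partner Stx1a was not called in any comparison. Snap25 had 1624, 1741 and 1751 normalised CPM in Olfr1507 libraries, 1024, 1243 and 1163 in Olfr73 libraries and 556, 686 and 907 in Olfr160 libraries. No libraries of different groups overlapped. Its log2 fold change was 1.25 (SE 0.17, adjusted p = 0.000436) for Olfr1507 over Olfr160, 0.58 (SE 0.17, adjusted p = 0.0279) for Olfr1507 over Olfr73 and 0.67 (SE 0.17, adjusted p = 0.0272) for Olfr73 over Olfr160. The first was called in all 9 fits without 1 library, the second was lost in 5 (without any 1 Olfr1507 library, or Olfr73 library 1 or 3) and the last in 4 (without Olfr73 library 2 or 3, or Olfr160 library 1 or 2). Relative to transduction genes the Olfr1507 values turned to -0.26 over Olfr160 and -0.30 over Olfr73. Olfr73 over Olfr160 gave 0.038 on that scale and was not called (adjusted p = 0.789). Stx1a averaged 144 ± 28.6, 160 ± 12.5 and 142 ± 19.3 normalised CPM in Olfr1507, Olfr73 and Olfr160 (adjusted p = 0.485 to 0.94), and relative to transduction genes its value for Olfr1507 over Olfr160 turned to -1.57 and was called.

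The vesicular SNAREs split. Vamp2 had 19.2, 19.4 and 18.6 normalised CPM in Olfr1507, 24.2, 19.6 and 18.5 in Olfr73, and 9.25, 12.1 and 13.1 in Olfr160, all Olfr160 libraries below the rest (log2 fold change 0.73 for Olfr1507 over Olfr160, SE 0.18, adjusted p = 0.00911, and 0.85 for Olfr73 over Olfr160, SE 0.18, adjusted p = 0.0143). The second call was lost without Olfr160 library 2 (adjusted p = 0.0542), and the first turned to -0.80 relative to transduction genes. Vamp1 averaged 59.1 ± 16.7 normalised CPM in Olfr1507, 99.7 ± 16.3 in Olfr73 and 73.4 ± 15.2 in Olfr160. It fell in Olfr1507 relative to Olfr73 (log2 fold change -0.76, SE 0.22, adjusted p = 0.0286), a call lost without Olfr1507 library 1 or 2 or Olfr73 library 1 (highest adjusted p 0.105). Its other comparisons did not pass (adjusted p = 0.271 for Olfr1507 over Olfr160 and 0.196 for Olfr73 over Olfr160).

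Complexins bind the assembled SNARE complex, and Cplx2 (chr13:54371349-54383917) had nearly all transcripts of the listed pair Cplx1 and Cplx2. It had 152, 120 and 150 normalised CPM in Olfr1507 libraries, 393, 496 and 453 in Olfr73 libraries and 139, 218 and 302 in Olfr160 libraries. Olfr73 stood above every library of the other groups, which overlapped each other. The log2 fold change for Olfr1507 over Olfr73 was -1.67 (SE 0.25, adjusted p = 0.00129) and passed in all 9 fits without 1 library. For Olfr73 over Olfr160 it was 1.03 (SE 0.25, adjusted p = 0.0222), lost without Olfr73 library 2 or 3 or Olfr160 library 2 (highest adjusted p 0.0828). For Olfr1507 over Olfr160 the value of -0.64 did not pass (SE 0.24, adjusted p = 0.0537), but it was called lower with RLE factors (adjusted p = 0.0306), library size alone (0.00451), transduction genes (1.2e-05), receptor genes left out (0.0406), a 5 CPM filter (0.0193), DESeq2 (0.00665) and limma-trend (0.0261 and 0.0263), and without Olfr160 library 1 (0.00452). The highest adjusted p among the alternatives was 0.203, without Olfr160 library 3. Cplx1 had 0 counts in all 6 GFP libraries and 5, 2 and 18 counts in the Olfr160 libraries, which places it at least 8.17-fold lower in Olfr1507 and at least 8.02-fold lower in Olfr73 than in Olfr160, taking 3 counts over a group as the floor. Library 3 held 18 of the 25 counts, and without it the bounds were 3.42-fold and 3.36-fold. These bounds allow for counting error of the 0 counts only and take the Olfr160 counts as they stand.

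The glutamate transporter Slc17a6 (chr7:51622006-51671119) had 714, 716 and 706 normalised CPM in Olfr1507, 1035, 1282 and 1070 in Olfr73, and 343, 618 and 799 in Olfr160. The 3 Olfr1507 libraries lay within the spread of Olfr160, and all Olfr73 libraries lay above both. Slc17a6 rose in Olfr73 over Olfr160 (log2 fold change 0.94, SE 0.25, adjusted p = 0.0331), a call lost in 7 of the 9 fits without 1 library, those without Olfr160 library 1 or 3 keeping it. The change for Olfr1507 over Olfr73 was -0.67 and did not pass (SE 0.25, adjusted p = 0.067). It was called lower with library size alone (adjusted p = 0.0089), transduction genes (6.72e-05), a 5 CPM filter (0.0298), DESeq2 (0.0145) and limma-trend (0.0275 and 0.0295). The same call was made with the 6 libraries compared (0.000973) and without Olfr160 library 1 (0.00436) or 3 (0.0351), but not with RLE factors. For Olfr1507 over Olfr160 the change was 0.28 (SE 0.25, adjusted p = 0.382), which turned to -1.19 relative to transduction genes and was called. Slc17a7 (VGLUT1) had 0, 2 and 0 counts in Olfr1507 libraries, 6, 5 and 8 in Olfr73 libraries and 1, 1 and 2 in Olfr160 libraries, too few to test.

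Of the 8 genes of the vesicle membrane, Sv2a, Sv2b, Syn2 and Syp were called in at least 1 comparison. Sv2b (chr7:75114894-75309262) had 317, 320 and 334 normalised CPM in Olfr1507, 289, 307 and 269 in Olfr73 and 92.6, 152 and 197 in Olfr160, and no groups overlapped. It was called for Olfr1507 over Olfr160 (log2 fold change 1.14, SE 0.22, adjusted p = 0.00299) and for Olfr73 over Olfr160 (0.97, SE 0.22, adjusted p = 0.0193), the second lost without Olfr160 library 2 (adjusted p = 0.0694). Scaled to transduction genes the first turned to -0.34 and the second stayed called at 0.37, while Olfr1507 over Olfr73 was called lower at -0.71. Its paralogue Sv2a averaged 111 ± 28.0 in Olfr1507, 74.9 ± 19.7 in Olfr73 and 40.1 ± 18.1 normalised CPM in Olfr160, and rose in Olfr1507 over Olfr160 (log2 fold change 1.47, SE 0.33, adjusted p = 0.00538). Relative to transduction genes that value was -0.00426. Its changes were 0.57 for Olfr1507 over Olfr73 (adjusted p = 0.188) and 0.90 for Olfr73 over Olfr160 (adjusted p = 0.0829).

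Synapsins tether vesicles in the reserve pool. Syn2 (chr6:115134902-115282006) had 7.34, 12 and 9.38 normalised CPM in Olfr1507, 17.1, 21.5 and 21.2 in Olfr73 and 16.5, 16.9 and 19.3 in Olfr160. Every Olfr1507 library lay below all libraries of both other groups. Its log2 fold change was -0.87 (SE 0.21, adjusted p = 0.00765) over Olfr160 and -1.05 (SE 0.21, adjusted p = 0.0049) over Olfr73, kept in all 9 fits without 1 library and under each of 4 scalings. Between Olfr73 and Olfr160 it differed by 0.18 (SE 0.21, adjusted p = 0.568). Syn3 averaged 12.9 ± 1.22, 22.3 ± 7.43 and 12 ± 3.48 normalised CPM in Olfr1507, Olfr73 and Olfr160 and did not pass (adjusted p = 0.0553 to 0.798), turning to a called -1.51 for Olfr1507 over Olfr160 relative to transduction genes, and 14.1% of its exon bases also lie in exons of the opposite-strand gene Timp3. Syn3 was called lower in Olfr1507 over Olfr73 with library size alone (adjusted p = 0.021), transduction genes (0.00599), receptor genes left out (0.0475), a 5 CPM filter (0.0362), DESeq2 (0.0289) and limma-trend (0.0438 and 0.0487). That call was also made with the 6 libraries compared (0.0324) and without Olfr73 library 2 (0.0387) or Olfr160 library 2 (0.0458), but not with RLE factors. Syn1 averaged 1.48 ± 0.456, 1.77 ± 0.917 and 0.787 ± 0.380 (adjusted p = 0.236 to 0.769).

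Synaptophysin (Syp), an abundant vesicle protein, had 13.3, 12.8 and 11.9 normalised CPM in Olfr1507, 18.3, 17.8 and 21.0 in Olfr73 and 8.28, 9.50 and 12.8 in Olfr160. The Olfr73 libraries exceeded all others (log2 fold change -0.59 for Olfr1507 over Olfr73, SE 0.20, adjusted p = 0.0444, and 0.90 for Olfr73 over Olfr160, SE 0.20, adjusted p = 0.0163). The first was lost in 7 of the 9 fits without 1 library, all but those without Olfr160 library 1 or 3, and the second without Olfr160 library 1 or 2 (highest adjusted p 0.13 and 0.0707), and 16.8% of Syp exon bases are shared with exons of the opposite-strand gene Gm14703. Syp turned to -1.21 in Olfr1507 over Olfr160 relative to transduction genes and was called. The synaptogyrins, 4-span membrane proteins of the vesicle, were not called, with Syngr1 at 72 ± 13.4, 80.9 ± 17.8 and 73.6 ± 35.4 and Syngr3 at 54.7 ± 5.17, 56.4 ± 7.51 and 42.2 ± 14.8 normalised CPM in Olfr1507, Olfr73 and Olfr160. Syngr3 turned to -1.11 in Olfr1507 over Olfr160 relative to transduction genes and was called.

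At the active zone, Unc13a, Unc13b and Pclo were lower and Rims2 was higher in Olfr1507 neurons than in both other groups after TMM scaling. The direction of Rims2 turned when libraries were scaled to transduction genes (-0.28 over Olfr160 and -0.30 over Olfr73). Unc13c, a Munc13 gene outside the 37, was called higher in Olfr1507 over Olfr160 and not called over Olfr73 after TMM scaling. Relative to transduction genes Unc13c was called lower over both (-0.77 and -1.29). Munc13 proteins prime docked vesicles for fusion. Unc13b (chr4:43058953-43264871) had 16.4, 20.3 and 18.5 normalised CPM in Olfr1507, 38.2, 34.1 and 52.0 in Olfr73, and 39.8, 37.5 and 39.4 in Olfr160. The Olfr1507 libraries all lay at or below 20.3 and the other 6 at or above 34.1. The log2 fold change was -1.08 (SE 0.17, adjusted p = 0.001) over Olfr160 and -1.17 (SE 0.17, adjusted p = 0.00121) over Olfr73, both kept in all 9 fits without 1 library and under each of 4 scalings. Olfr73 over Olfr160 gave 0.09 (SE 0.17, adjusted p = 0.744).

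Unc13a (Munc13-1) had 4.97, 6.77 and 7.70 normalised CPM in Olfr1507, 18.9, 18.6 and 17.1 in Olfr73 and 11.9, 7.84 and 14.2 in Olfr160. Groups did not overlap. It fell by 1.49 on the log2 scale in Olfr1507 relative to Olfr73 (SE 0.26, adjusted p = 0.00281) and by 0.80 relative to Olfr160 (SE 0.26, adjusted p = 0.0287). The call against Olfr160 was lost without Olfr1507 library 1 or 2 or Olfr160 library 1 or 3 (highest adjusted p 0.102). Olfr73 over Olfr160 gave 0.69 (SE 0.25, adjusted p = 0.092).

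Piccolo (Pclo, chr5:14514918-14863459) and Bassoon (Bsn) are the giant scaffold proteins of the active zone. Pclo had 34.1, 33.2 and 28.7 normalised CPM in Olfr1507, 56.8, 54.9 and 82.6 in Olfr73 and 45.0, 47.8 and 47.7 in Olfr160, without overlap between groups. Its log2 fold change was -0.55 (SE 0.17, adjusted p = 0.022) for Olfr1507 over Olfr160 and -1.02 (SE 0.17, adjusted p = 0.00202) for Olfr1507 over Olfr73. The first was lost without Olfr1507 library 2 or 3 or Olfr160 library 2 or 3 (highest adjusted p 0.0811), and the second was kept in all 9 such fits. Bsn had 30.3, 40.4 and 32.3 normalised CPM in Olfr1507, 30.9, 49.96 and 45.4 in Olfr73 and 18.2, 22.9 and 29.5 in Olfr160. The Olfr160 libraries lay below all others, and the change was called for Olfr73 over Olfr160 (0.84, SE 0.23, adjusted p = 0.0371) but lost in 6 of the 9 fits without 1 library, those without Olfr1507 library 2, Olfr73 library 1 or Olfr160 library 3 keeping it. For Olfr1507 over Olfr160 Bsn gave 0.55 (SE 0.23, adjusted p = 0.0772; a called -0.97 relative to transduction genes) and for Olfr1507 over Olfr73 -0.29 (SE 0.23, adjusted p = 0.346).

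RIM proteins link vesicles, Munc13 and calcium channels. Rims2 (chr15:39198261-39684372) had 38.4, 40.8 and 34.5 normalised CPM in Olfr1507, 19.5, 30.1 and 26.9 in Olfr73 and 13.5, 15.8 and 18.3 in Olfr160. The groups were ordered without overlap (log2 fold change 1.26 for Olfr1507 over Olfr160, SE 0.19, adjusted p = 0.000766; 0.57 for Olfr1507 over Olfr73, SE 0.19, adjusted p = 0.0416; 0.68 for Olfr73 over Olfr160, SE 0.19, adjusted p = 0.0376). The first was kept in all 9 fits without 1 library and the others were lost in 6 and 7 of them (highest adjusted p 0.123 and 0.12). Both were lost without Olfr160 library 2, any 1 Olfr1507 library or Olfr73 library 3, the call over Olfr73 also without Olfr73 library 1, and that of Olfr73 over Olfr160 also without Olfr73 library 2 or Olfr160 library 1. Rims1 averaged 6.21 ± 1.86, 9.55 ± 2.35 and 5.28 ± 0.860 normalised CPM in Olfr1507, Olfr73 and Olfr160 and Erc2 (ELKS2) 0.648 ± 0.756, 0.373 ± 0.308 and 1.18 ± 1.02, and neither passed in any comparison, with Rims1 turning to a called -1.30 for Olfr1507 over Olfr160 relative to transduction genes.

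The Rab3 GTPases sit on vesicles and bind RIM. Rab3c (chr13:110054187-110280996) had 1.67, 1.06 and 1.62 normalised CPM in Olfr1507, 4.93, 3.32 and 8.95 in Olfr73 and 8.04, 7.48 and 8.63 in Olfr160. Olfr1507 libraries all lay below the other 6, with log2 fold changes of -2.48 (SE 0.42, adjusted p = 0.00131) over Olfr160 and -1.99 (SE 0.41, adjusted p = 0.00602) over Olfr73, both kept in all 9 fits without 1 library. Rab3a had 30.0, 24.8 and 10.5 normalised CPM in Olfr1507, 9.95, 12 and 6.71 in Olfr73 and 3.76, 10.3 and 14.5 in Olfr160. Olfr1507 overlapped both groups and no comparison passed (1.19 over Olfr160, SE 0.51, adjusted p = 0.0779, and 1.19 over Olfr73, SE 0.51, adjusted p = 0.0962).

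Calcium channel subunits gave the member with the lowest adjusted p. Cacna1b (chr2:24603887-24763152) encodes the pore of the N-type channel, which in rodents is known to feed release from olfactory axon terminals. It had 89.1, 99.8 and 72.5 normalised CPM in Olfr1507, 64.0, 46.8 and 57.2 in Olfr73 and 26.7, 24.5 and 29.0 in Olfr160, and no groups overlapped. Its log2 fold change was 1.70 (SE 0.16, adjusted p = 5.78e-05) for Olfr1507 over Olfr160, 0.64 (SE 0.16, adjusted p = 0.0135) for Olfr1507 over Olfr73 and 1.07 (SE 0.16, adjusted p = 0.00437) for Olfr73 over Olfr160. Both calls over Olfr160 were kept in all 9 fits without 1 library, and that over Olfr73 was lost without Olfr1507 library 2 (adjusted p = 0.0564). Relative to transduction genes Olfr1507 over Olfr160 gave 0.13 and Olfr73 over Olfr160 gave 0.38, neither called (adjusted p = 0.593 and 0.218), and Olfr1507 over Olfr73 turned to -0.25.

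Cacna2d1, the auxiliary alpha2delta subunit that carries channels to the membrane, had 143, 162 and 118 normalised CPM in Olfr1507, 132, 133 and 155 in Olfr73 and 37.2, 61.9 and 86.9 in Olfr160. Olfr160 lay below all other libraries (log2 fold change 1.19 for Olfr1507 over Olfr160, SE 0.26, adjusted p = 0.00544, and 1.17 for Olfr73 over Olfr160, SE 0.26, adjusted p = 0.0176). Without Olfr160 library 2 the second was lost (adjusted p = 0.0694). Relative to transduction genes the first turned to -0.28, the second stayed called at 0.59 and Olfr1507 over Olfr73 was called lower at -0.87. Cacna1a, the pore of the P/Q-type channel, averaged 1.20 ± 1.12, 3.18 ± 0.769 and 1.04 ± 0.692 normalised CPM in Olfr1507, Olfr73 and Olfr160 and did not pass (adjusted p = 0.232 to 0.856).

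The neurexins are adhesion proteins that organise the terminal. Nrxn3 (chr12:88722876-90334935) had 0, 9 and 6 counts in the Olfr1507 libraries, 0 in each Olfr73 library and 71, 74 and 25 in the Olfr160 libraries. It passed the low-count filter through the Olfr160 libraries alone, so its tests and calls are not independent of its high level there. Its Olfr160 values of 3.42, 2.99 and 1.11 normalised CPM were highest in library 1 and lowest in library 3, the reverse of the order of the mature neuron markers. With 3 counts over the group as the floor, Nrxn3 was at least 54.6-fold lower in Olfr73 than in Olfr160 (adjusted p = 0.0147) and at least 4.91-fold higher in Olfr1507 than in Olfr73 (adjusted p = 0.0488), although Olfr1507 library 1 also had 0 counts, and both bounds cover counting error only. The call for Olfr73 over Olfr160 was lost without Olfr160 library 2 (adjusted p = 0.0574). That for Olfr1507 over Olfr73 was lost in 8 of the 9 fits without 1 library, all but that without Olfr1507 library 1. The fitted log2 fold change for Olfr1507 over Olfr160 was -3.52 (SE 1.13, adjusted p = 0.0361), lost without Olfr1507 library 2 or 3 or Olfr160 library 1 or 2 (highest adjusted p 0.112). Nrxn2 averaged 6.65 ± 2.03, 3.57 ± 1.43 and 3.36 ± 0.323 normalised CPM in Olfr1507, Olfr73 and Olfr160 and did not pass (adjusted p = 0.0655 to 0.906).

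**Figure D2:**
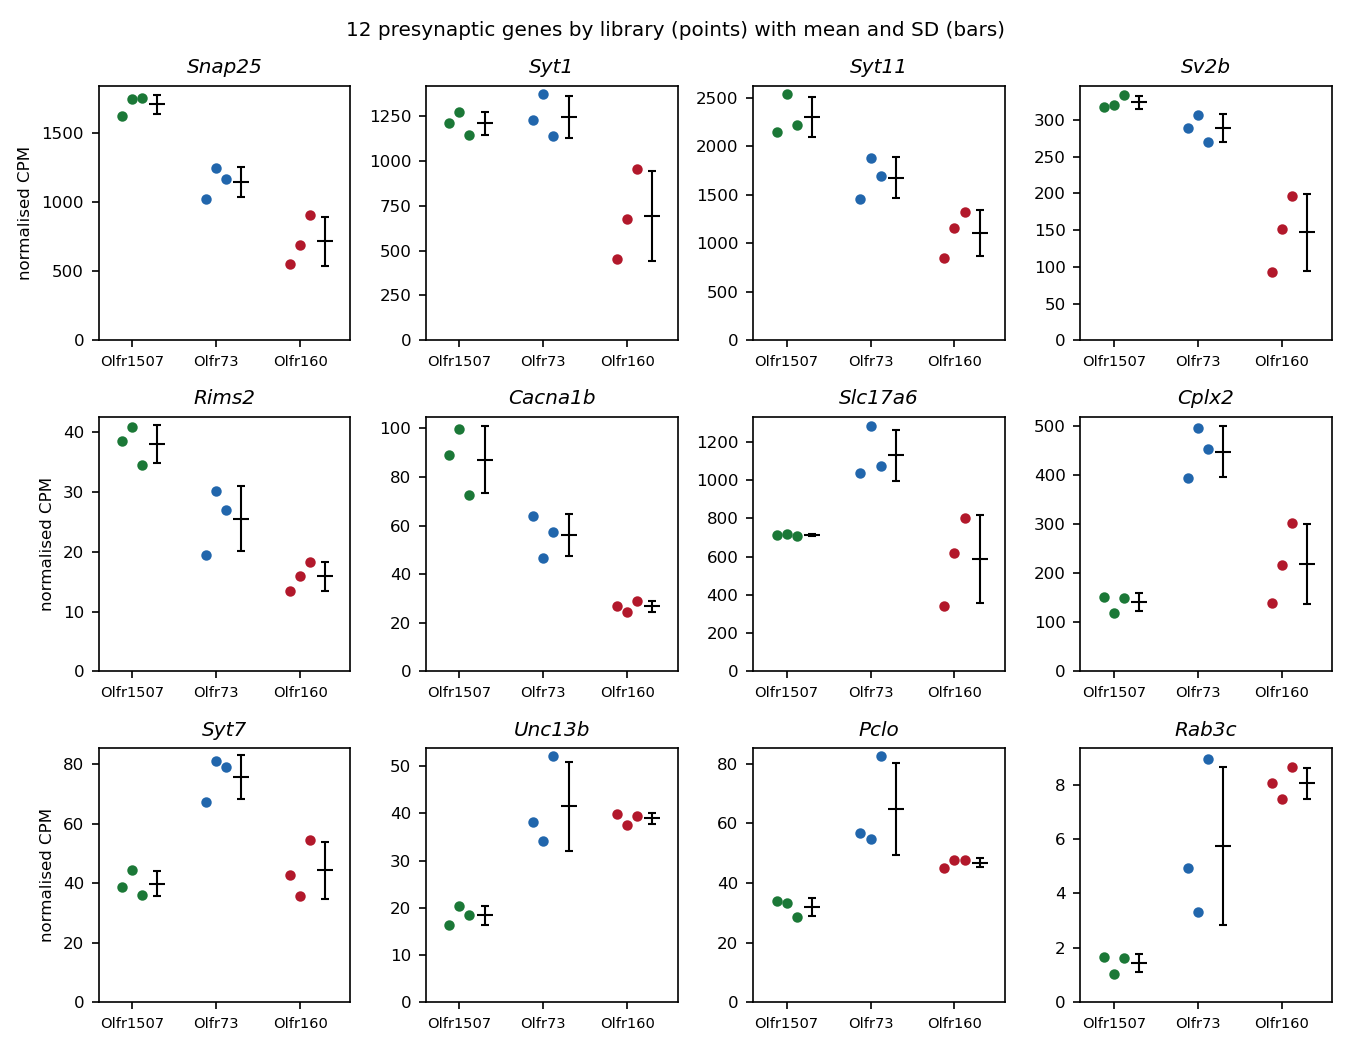
Normalised CPM (linear axes from 0) of 12 presynaptic genes in each library, grouped as Olfr1507, Olfr73 and Olfr160, with points for libraries and bars for the mean and SD (n = 3). Unc13b and Rab3c are low in all Olfr1507 libraries (at most 20.3 and 1.67), Cplx2 and Syt7 are high in all Olfr73 libraries (at least 393 and 67.5), and Snap25 and Cacna1b step down from Olfr1507 to Olfr160 without overlap, an order that turns relative to transduction genes for Snap25 in Olfr1507 over both groups and for Cacna1b in Olfr1507 over Olfr73.

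Across the 34 tested genes, 10 were called higher and 6 lower in Olfr1507 than in Olfr160, 47.1% of them. Among all tested genes 48.4% were called in this comparison, 20.7% higher and 27.7% lower, so that the share called among the presynaptic genes lay near that of all genes. The higher genes were Syt1, Syt4, Syt11, Snap25, Vamp2, Sv2a, Sv2b, Rims2, Cacna1b and Cacna2d1, and the lower ones were Syn2, Pclo, Unc13a, Unc13b, Rab3c and Nrxn3. Nrxn3 passed the low-count filter through Olfr160 alone, so its lower call is not independent of its high level there. The median log2 fold change of the 34 was 0.26, against -0.14 for all tested genes. The count of lower genes was 3 without Olfr1507 library 2, where 3735 of 17413 tested genes were called lower, against 4540 in the full fit. Of the 10 higher calls, 9 (all but Syt1) were kept in each of the 9 fits without 1 library. Of the 6 lower calls, 3 were kept in each (Syn2, Unc13b and Rab3c). Relative to transduction genes edgeR called 0 higher (0 also at an unadjusted p under 0.05) and 24 lower, where DESeq2 with its own scaling kept all 16 calls, and all 6 genes called lower after TMM scaling were among the 24. Of all tested genes 84.6% were called lower and 0.713% higher on that scale.

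In Olfr1507 relative to Olfr73, 5 of the 34 were called higher (Syt4, Snap25, Rims2, Cacna1b and Nrxn3) and 9 lower (Syt7, Vamp1, Cplx2, Syp, Syn2, Pclo, Unc13a, Unc13b and Rab3c), 41.2% together. Of these, Nrxn3 was tested only because it passed the low-count filter through Olfr160. Among all tested genes 34.4% were called, 14.5% higher and 19.9% lower. The median of the 34 was -0.14 on the log2 scale and that of all tested genes -0.15. Of the 9 lower calls 7 were kept in each of the 9 fits without 1 library (all but Vamp1 and Syp), and 0 of the 5 higher calls were. The number called higher was 2, 0 and 1 without Olfr1507 library 1, 2 or 3 (6 at an unadjusted p under 0.05 without library 2). It was 1 without Olfr73 library 1 or 3, and 3 without Olfr160 library 2. Among all tested genes 1569, 1610 and 1712 were called higher without Olfr1507 library 1, 2 or 3, against 2379 in the full fit. That number was 2027 and 2094 without Olfr73 library 1 or 3, and 2061 without Olfr160 library 2. All 9 lower calls were also made with RLE factors, with library size alone and with scaling to transduction genes, whereas the higher calls fell to 0 with library size alone or with transduction genes (2 and 1 at an unadjusted p under 0.05). With transduction genes 23 of the 34 were called lower, against 55.6% of all tested genes lower and 2.18% higher, and with library size alone 28.7% of all genes were lower and 6.38% higher. DESeq2 kept all 14 calls. This comparison shares its Olfr1507 libraries with the previous one, so that Syn2, Pclo, Unc13a, Unc13b and Rab3c, called lower in both, rest in part on the same data.

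In Olfr73 relative to Olfr160, 13 of the 34 were called higher and 1 lower (Nrxn3, which passed the filter through Olfr160 alone), 41.2% together. The 13 were Syt1, Syt7, Syt11, Snap25, Vamp2, Cplx2, Slc17a6, Sv2b, Syp, Bsn, Rims2, Cacna1b and Cacna2d1. Among all tested genes 17.9% were called, with 7.45% higher and 10.5% lower. The median was 0.68, against -0.012 for all tested genes. The number called higher was 1 without Olfr160 library 2 (15 at an unadjusted p under 0.05) and 7 without Olfr160 library 1. It was 7 and 6 without Olfr73 library 2 or 3, and 8 without Olfr1507 library 1 or 3. Among all tested genes 319 of 16941 were called higher without Olfr160 library 2 and 572 of 16812 without library 1, against 1222 in the full fit. That number was 735 and 644 without Olfr73 library 2 or 3, and 945 and 893 without Olfr1507 library 1 or 3. Of the 13 higher calls only Cacna1b was kept in each of the 9 fits without 1 library. Scaled to transduction genes, 2 were called higher (Sv2b and Cacna2d1) and 3 lower (Syt2, Syt5 and Nrxn3), against 0.604% higher and 30.7% lower among all tested genes. The others of the 13 then stood between -0.052 (Syt11) and 0.43 (Cplx2), none called. The median of the 34 was 0.014 on that scale, against -0.71 for all tested genes. Library size alone gave 13 higher and 1 lower, against 5.23% and 11.8%.

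Inside the Olfr160 group, 18 of the 34 tested genes were lowest in library 1 and highest in library 3, 52.9% against 23% of all tested genes. They included 11 of the 13 genes called higher in Olfr73, and the mature neuron markers and the tagged receptor followed the same order of libraries. With Olfr160 library 3 alone standing for its group, that group has no spread of its own, so only effect sizes are given here. The median log2 fold change of the 35 tested members in Olfr73 over Olfr160 was then 0.38, against 0.68 with all 9 libraries. That of all tested genes was 0.0075. In Olfr1507 over Olfr160 the median of the members was then -0.011, against 0.26 with all 9 libraries, and that of all tested genes -0.11. The part of mature neuron content in these differences was not tested.

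**Figure D3:**
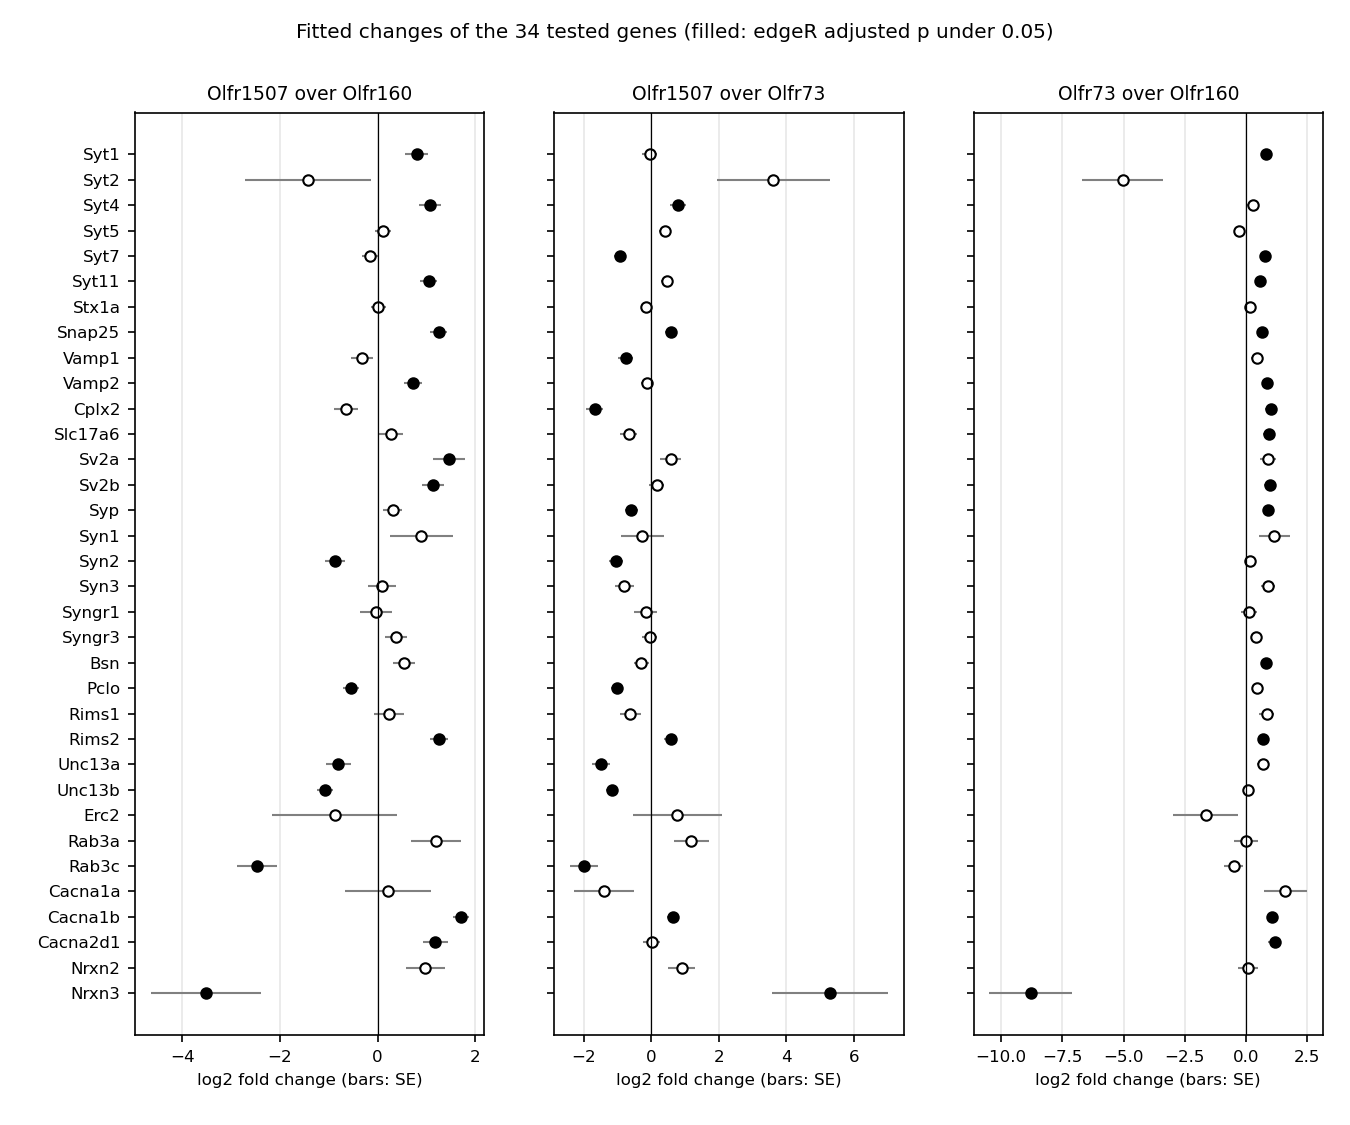
Fitted log2 fold changes with SE of the 34 tested genes in the 3 comparisons (panels with different horizontal ranges), filled where the edgeR adjusted p is under 0.05. Cacna1b leads the higher genes of Olfr1507 over Olfr160 at 1.70 and Rab3c is at -2.48, all after TMM scaling. Scaled to transduction genes, Cacna1b is at 0.13 and the other genes called higher in Olfr1507 over Olfr160 turn below 0. Fitted values of Nrxn3 in the comparisons with Olfr73, whose libraries had 0 counts, depend on the prior count and bound nothing.

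**Figure D4:**
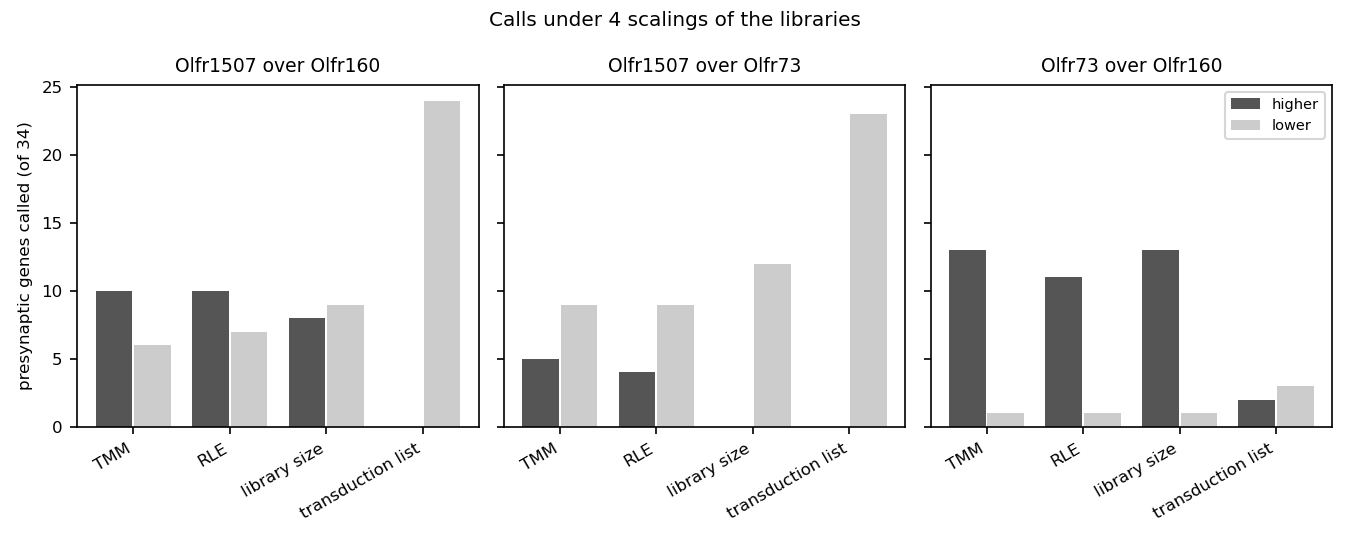
Number of the 34 tested genes called higher and lower (edgeR adjusted p under 0.05) in the 3 comparisons under 4 scalings of the libraries. Olfr1507 over Olfr160 has 10 higher and 6 lower after TMM scaling and 0 higher and 24 lower relative to transduction genes, while Olfr73 over Olfr160 has 13 and 1, against 2 and 3.

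A ratio of 2 genes within a library does not depend on the scaling of libraries, and 16 pairs of related genes were compared this way in TPM. Of the 48 differences, 4 changed sign with a pseudocount of 1 and 3 with expected counts in place of TPM, none of them among those without overlap between groups. With 3 libraries against 3 the smallest p of a two-sided exact permutation test is 0.1, or 0.267 after adjustment over the 48 tests, so no pair could pass. The Bsn/Pclo ratio was 1.90, 2.28 and 2.08 in Olfr1507, 0.980, 1.82 and 1.09 in Olfr73 and 0.683, 0.822 and 1.20 in Olfr160. Olfr1507 libraries all lay above the other 6 (exact p = 0.1 each). The Rab3a/Rab3c ratio was 30.3, 50.9 and 8.09 in Olfr1507, 2.96, 5.30 and 1.39 in Olfr73 and 0.807, 2.85 and 3.25 in Olfr160, again without overlap between Olfr1507 and either group.

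The Syt5/Syt7 ratio set Olfr73 apart, at 4.86, 6.06 and 6.54 in Olfr1507, 3.16, 2.46 and 2.44 in Olfr73 and 4.37, 7.16 and 5.61 in Olfr160. Rims1/Rims2 averaged 0.261 in Olfr1507, 0.643 in Olfr73 and 0.498 in Olfr160, and did not overlap between Olfr1507 and Olfr160. Vamp1/Vamp2 averaged 2.36, 3.08 and 4.41 in Olfr1507, Olfr73 and Olfr160, and Olfr160 did not overlap either group. Syn3/Syn2 averaged 1.20 in Olfr1507, 0.865 in Olfr73 and 0.605 in Olfr160, without overlap between Olfr1507 and Olfr160. The Unc13a/Unc13b ratio, by contrast, overlapped in every comparison, at 0.240, 0.278 and 0.252 in Olfr1507, Olfr73 and Olfr160.

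**Figure D5:**
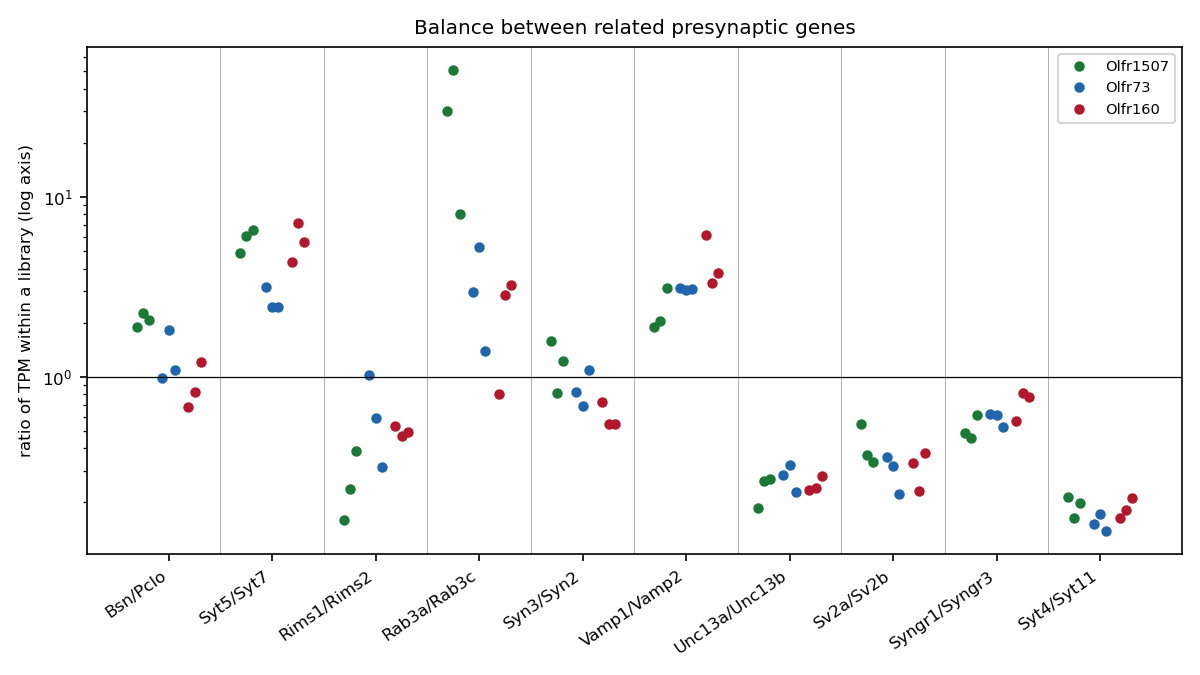
Ratios of TPM within each library for pairs of related presynaptic genes (log axis), 1 point per library, by group (Olfr1507, Olfr73, Olfr160). Bsn/Pclo is at or above 1.90 in Olfr1507 and at or below 1.82 in all other libraries, and Unc13a/Unc13b overlaps between all groups.

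Around these 37 genes, 5 further lists of the release pathway were counted, with 133 of 134 genes measured, and their counts turn with the scaling. For reference, 20.7% of all tested genes were called higher and 27.7% lower in Olfr1507 over Olfr160, 14.5% and 19.9% in Olfr1507 over Olfr73, and 7.45% and 10.5% in Olfr73 over Olfr160. On the scale of transduction genes 84.6%, 55.6% and 30.7% were lower in these comparisons. Vesicular proton pump genes, which acidify vesicles and so drive transmitter uptake, had 12 of 18 higher and 1 lower in Olfr1507 than in Olfr160 after TMM scaling, while library size alone gave 4 each way (8.19% higher and 38.2% lower among all genes) and transduction genes gave 17 lower. Their median log2 fold change after TMM scaling was 0.49, against -0.14 for all tested genes. Against Olfr73 they had 4 higher and 1 lower, and Olfr73 over Olfr160 had 3 and 1, turning to 15 and 10 lower relative to transduction genes. Atp6v1b2, a subunit of the cytoplasmic part of the pump, averaged 369 ± 17.3 normalised CPM in Olfr1507, 237 ± 21.8 in Olfr73 and 198 ± 33.5 in Olfr160 (log2 fold change 0.90 over Olfr160, SE 0.13, adjusted p = 0.00065, and 0.64 over Olfr73, SE 0.13, adjusted p = 0.00609), and relative to transduction genes it turned to -0.63 over Olfr160, called lower, and to -0.24 over Olfr73. Genes of vesicle endocytosis had 9 of 24 higher and 1 lower in Olfr1507 over Olfr160, 6 higher in Olfr1507 over Olfr73, and 5 higher and 1 lower in Olfr73 over Olfr160, turning to 20, 13 and 7 lower relative to transduction genes, where only Snap91 stayed higher (over Olfr160 in both comparisons). Their median was 0.27 in Olfr1507 over Olfr160 after TMM scaling. Snap91 (AP180), a clathrin adaptor that retrieves vesicle SNAREs, averaged 94.1 ± 13.4 normalised CPM in Olfr1507, 54.2 ± 10.6 in Olfr73 and 20.7 ± 2.44 in Olfr160 (2.18 on the log2 scale in Olfr1507 over Olfr160, SE 0.18, adjusted p = 2.96e-05).

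Other vesicle membrane and active zone genes had 13 of 37 higher and 12 lower in Olfr1507 over Olfr160, 6 and 10 in Olfr1507 over Olfr73 and 9 and 6 in Olfr73 over Olfr160, with 34, 25 and 10 lower relative to transduction genes and Rims3 and Cacnb3 higher over Olfr160 and Rims3 over Olfr73. Their median was 0.12 in Olfr1507 over Olfr160 after TMM scaling. Rims3, a short RIM isoform gene without the long scaffold part, had 416 ± 72.1 normalised CPM in Olfr1507, 21.4 ± 8.75 in Olfr73 and 46.2 ± 3.58 in Olfr160 (log2 fold change 4.28 over Olfr73, SE 0.28, adjusted p = 2.43e-05, and 3.17 over Olfr160, SE 0.27, adjusted p = 3.54e-05). Cask, a scaffold that binds neurexins, fell in Olfr1507 relative to Olfr73 (24.97 ± 3.19 against 71.6 ± 4.97 normalised CPM, adjusted p = 0.00049). Sypl and Rab27b, also found in epithelial cells, averaged 43.1 ± 2.64 and 0.654 ± 0.377 normalised CPM in Olfr1507, 68.3 ± 1.39 and 4.06 ± 0.485 in Olfr73, and 187 ± 33.1 and 19.9 ± 4.68 in Olfr160, the same order of groups as the sustentacular markers.

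Other SNAREs and their regulators had 11 of 30 higher and 6 lower in Olfr1507 over Olfr160, 6 and 8 in Olfr1507 over Olfr73 and 7 and 4 in Olfr73 over Olfr160, with 27, 22 and 12 lower relative to transduction genes and a median of 0.24 in Olfr1507 over Olfr160 after TMM scaling. Stxbp2 and Vamp8, which serve secretion in non-neuronal cells, averaged 1.40 ± 0.611 and 0.640 ± 0.330 normalised CPM in Olfr1507, 13.4 ± 3.73 and 7.25 ± 1.46 in Olfr73, and 53.8 ± 18.6 and 29.7 ± 13.8 in Olfr160. Among other synaptotagmins and Doc2 genes, 7 of 12 were tested, with 2 higher and 1 lower in Olfr1507 over Olfr160, 2 higher in Olfr1507 over Olfr73 and 2 higher in Olfr73 over Olfr160, with 3, 1 and 1 lower relative to transduction genes, where Syt10 stayed higher over Olfr73. Syt10 averaged 11.8 ± 1.35 normalised CPM in Olfr1507, 0.731 ± 0.685 in Olfr73 and 3.40 ± 1.27 in Olfr160 (log2 fold change 4.0 for Olfr1507 over Olfr73, SE 0.91, adjusted p = 0.00938).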

How the data were processed

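Per the labels' protocols, RNA was purified with RNeasy micro columns, and a low-input kit served for the polyadenylated RNA libraries. The submitters' processing notes name STAR 2.6.1, RSEM 1.3.1, the build mm10 and DESeq2 without a version. The annotation release and the handling of strand were not given in the sources used here. Expected counts per gene were deposited by the authors, with fractional values at 4.06% to 5.54% of the genes per library, as was TPM, which allows for transcript length. Columns carry older receptor names (M72, MOR174 and MOR28), matched to groups through RefSeq synonyms and replicate numbers. Gene coordinates are from GENCODE M21, where 98.7% of the transcript identifiers were found.

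Expected counts were rounded and fitted with edgeR 4.0.16 in R 4.3.3 (filterByExpr by group, TMM, robust quasi-likelihood F test, all 9 libraries, Benjamini-Hochberg adjusted p under 0.05). SE is the size of the log2 fold change divided by the square root of F. The fit was tested on simulated data. A count of 0 was bounded with 3 counts over the group. Ratios used TPM with a pseudocount of 0.1 and an exact permutation test (scipy 1.17.1). Alternatives used DESeq2 1.42.0 and limma 3.58.1, and figures matplotlib 3.10.9. 3 counts correspond to 0.0828 to 0.174 CPM per library.

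The members and lists, the alternatives and the motifs were chosen with earlier results of these data known. All 37 members are named. From each further list the rule allowed up to 3 called genes with the lowest adjusted p per comparison, of which the text gives some, picked after their values were seen. Vamp7 of these lists was not analysed here. Replicate numbers were not used to pair libraries, since deviations of same-numbered libraries correlated at only -0.21 to 0.14.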

Additional observations from a re-analysis of the deposited data

How the results depend on the processing

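Beyond leaving out libraries, the results depended most on scaling. Relative to 15 transduction genes, all genes called numbered 13998 (Olfr1507 over Olfr160), 9483 (Olfr1507 over Olfr73) and 5137 (Olfr73 over Olfr160), and members called higher and lower were 0 and 24, 0 and 23, and 2 and 3. Called values that turned there were, for Olfr1507 over Olfr160, Syt1 -0.68, Syt4 -0.41, Syt5 -1.42, Syt11 -0.47, Stx1a -1.57, Snap25 -0.26, Vamp2 -0.80, Slc17a6 -1.19, Sv2a -0.00426, Sv2b -0.34, Syp -1.21, Syn3 -1.51, Syngr3 -1.11, Bsn -0.97, Rims1 -1.30, Rims2 -0.28 and Cacna2d1 -0.28. For Olfr1507 over Olfr73 they were Syt4 -0.0895, Syt5 -0.49, Syt11 -0.42, Snap25 -0.30, Sv2b -0.71, Rims2 -0.30, Cacna1b -0.25 and Cacna2d1 -0.87, and for Olfr73 over Olfr160 Syt11 -0.052. For Olfr1507 over Olfr73, members called higher were 0 with library size alone, 3 with a filter of 5 CPM in 3 libraries, and 0 with limma-trend on log2(TPM + 1) or log2(TPM + 0.1) (3 each at an unadjusted p under 0.05). Among all tested genes 1047 of 16399, 1900 of 10850, 1420 of 16399 and 1474 of 16399 were called higher in these 4 settings. The full fit called 2379 higher. For Olfr73 over Olfr160, 5 were higher with the 6 libraries compared, and lower calls were 0 with the 5 CPM filter (0 at an unadjusted p under 0.05, Nrxn3 being removed) and 2 with DESeq2. Among all tested genes 658 of 16158 were called higher with the 6 libraries compared. Lower calls among all genes were 1587 of 10850 with the 5 CPM filter and 2702 of 16399 with DESeq2. The fit with Olfr160 library 3 alone leaves 1 library in that group. Its calls cannot tell smaller differences from the loss of libraries, so no conclusion is drawn from the counts that follow. Effect sizes of that fit are given above. With Olfr160 library 3 alone, chosen after seeing the data, all genes called were 3337 and 61 in the comparisons with Olfr160, members higher 6 and 0, and members lower in Olfr73 over Olfr160 0. Leaving out 1 library gave 6391 to 8890, 3657 to 5546 and 976 to 3062 calls among all genes for Olfr1507 over Olfr160, Olfr1507 over Olfr73 and Olfr73 over Olfr160, with 9 to 13, 0 to 6 and 1 to 15 members higher and 3 to 6, 7 to 10 and 0 to 2 lower. With the replicate number as a block, although the numbers do not pair libraries, all genes called were 7398, 4804 and 2485, with members 11 and 5, 5 and 9, and 14 and 1. Of the single member values, 1743 kept direction and call, 173 lost the call, 74 gained it, 26 turned while called in at least 1 setting, and 107 that were called in neither setting changed sign. Causes were not tested. Counts under 20 per library (Nrxn3, Erc2, Syt2, Cplx1, Doc2b and Slc17a7 in most libraries, Syn1 and Cacna1a in 4 and 3) limit those genes.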
